A study of Mus musculus with 22 samples.

Results

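The genes described here are 10 feedback genes of the FGF/ERK pathway in mouse fibroblasts under reprogramming: the dual-specificity phosphatases Dusp4, Dusp5 and Dusp6, the Sprouty genes Spry1, Spry2 and Spry4, the Sprouty-related genes Spred1 and Spred2, and the PEA3-type ETS factors Etv4 and Etv5. They were chosen by symbol, by a rule that has no threshold on a measured value but was written with earlier results of these data known, and all 10 were found among the 24130 genes of the deposited tables. Each of them had counts in all 20 libraries with counts, and all 10 passed the filter on low counts in every model fitted. In short, 4 of them (Spry4, Etv5, Spry2 and Dusp6) were higher and 1 (Spry1) was lower in cells given Oct4, Sox2 and Klf4 than in cells given GFP, beside 16.8% of all genes higher and 14% lower. In medium without bFGF, Spry1 passed the test as higher than in OSK and none of the 10 passed as lower, beside 4.71% of all genes higher and 7.77% lower.

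Fibroblast growth factors bind receptor tyrosine kinases that activate RAS, RAF, MEK and the kinase ERK. ERK activity raises transcription of genes whose products act back on the same cascade: DUSP enzymes remove phosphate from ERK and related kinases, and Sprouty and Spred proteins act upstream, between the receptor and RAF. Etv4 and Etv5 are transcription factors that are induced by FGF signalling in many tissues and carry its response to other genes. For these reasons the transcripts of such genes are widely used as a readout of ERK activity, although other signals also act on them, and bFGF (FGF2) is a common addition to culture media.

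The 20 libraries came from OG2 transgenic mouse embryonic fibroblasts at passage P2 of a mixed strain (1/2 129SVJ, 3/8 C57B6 and 1/8 CBA), taken on a stated day that followed 2 days of transfection. OSK cells received Oct4, Sox2 and Klf4 (days 0, 1, 3, 5 and 7), OvSvK cells received Oct4-vp16, Sox2-vp16 and Klf4, the first 2 of these being fusions to a viral activation domain (days 0 to 4), and GFP cells received GFP (days 1, 3, 5 and 7). In 3 further arms OSK cells were kept in medium without bFGF, without vitamin C (vc), or without the GSK3 inhibitors CHIR-99021 and LiCl (GSK3i), each on days 3 and 7. Mouse embryonic stem cells (mESC) and untransfected mouse embryonic fibroblasts (MEF) were end points of the series. The labels do not give the medium of the GFP cells, the bFGF concentration or the vector. All 20 libraries are bulk RNA of whole cultures, and those given the factors may mix fibroblasts with cells at unknown stages of reprogramming. In bulk RNA fewer cells of a type and less RNA per cell cannot be told apart. Each arm and day was 1 library (n = 1), so the errors given below are the variation of an arm difference between days, or the departure from a line over days, not a spread between replicates.

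Totals lay between 7872278 and 20720724 expected counts per library. The libraries fell into 2 sets that only partly follow the arms: of the joint counts of Rpsa and its pseudogene Rpsa-ps10, the pseudogene took 3.32% to 7.78% in the 8 libraries of OSK days 1 to 7 and GFP, and 0.124% to 0.476% in the other 12. Comparisons of OSK with GFP, and of the omissions with each other, stay within a set. Those of the omissions or OvSvK with OSK on days 1 to 7, and changes from OSK day 0 onward, cross it, so set and arm cannot be told apart there. The OSK day 0 library also stood apart, with a TMM factor of 0.674 and, for the 20% of genes with the highest GC content, a median log2 deviation of 1.2 from the other libraries, and of -1.73 for the 20% with the lowest. In GFP day 1 these deviations were 0.41 and -1.04, and in the day 3 library without bFGF they were 0.29 and -0.53. Dusp4, Dusp5, Spry1 and Etv4 are in the group of highest GC content, Spred1 is in that of lowest, and the part of GC content in any result on them was not tested. All 12 fibroblast markers had counts in every library.

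Promoters were looked up to show the sequence at the starts of these genes, since ETS factors and AP-1 are known end points of ERK signalling. RefSeq promoters (build GRCm38.p6, 250 bases before to 50 bases after a start) were matched for 7 of the 10 members, with 8 entries because Etv5 has 2. No entry for Dusp4, Spry4 or Etv4 was among those searched. The chromosome of Spry4 was left out when entries were selected, so whether Spry4 has an entry or any of the motifs was not tested. Both strands were searched for an ETS core (CCGGAA), a cAMP-response core (TGACG) and an AP-1 site (TGANTCA). The ETS core was in 1 of the 8 entries (Spry2) against 14.9% of 32851 promoters, the cAMP-response core was in 2 (Dusp5 and Spred2) against 20.8%, and the AP-1 site was in 0 against 7.81%. The entries of 3 genes called higher in OSK than in GFP, and of the 1 called lower, are printed 5′ to 3′, with any of the 3 motifs in capitals. They lie at chr14:105896770-105897069, minus strand (Spry2), chr10:99262981-99263280, plus strand (Dusp6), chr16:22439521-22439820, minus strand (Etv5, the more upstream of its 2 entries) and chr3:37639697-37639996, plus strand (Spry1).
Spry2: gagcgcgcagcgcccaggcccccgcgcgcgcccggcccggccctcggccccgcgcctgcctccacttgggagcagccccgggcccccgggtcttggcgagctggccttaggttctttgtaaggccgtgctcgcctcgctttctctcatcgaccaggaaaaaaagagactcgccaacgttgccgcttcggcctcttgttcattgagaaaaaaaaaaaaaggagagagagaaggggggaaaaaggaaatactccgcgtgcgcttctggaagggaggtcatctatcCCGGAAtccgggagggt
Dusp6: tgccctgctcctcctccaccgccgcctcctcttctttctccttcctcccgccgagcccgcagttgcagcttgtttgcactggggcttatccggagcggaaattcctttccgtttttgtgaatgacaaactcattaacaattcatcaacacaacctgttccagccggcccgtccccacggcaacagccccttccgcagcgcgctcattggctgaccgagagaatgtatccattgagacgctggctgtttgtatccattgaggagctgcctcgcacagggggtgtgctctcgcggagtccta
Etv5: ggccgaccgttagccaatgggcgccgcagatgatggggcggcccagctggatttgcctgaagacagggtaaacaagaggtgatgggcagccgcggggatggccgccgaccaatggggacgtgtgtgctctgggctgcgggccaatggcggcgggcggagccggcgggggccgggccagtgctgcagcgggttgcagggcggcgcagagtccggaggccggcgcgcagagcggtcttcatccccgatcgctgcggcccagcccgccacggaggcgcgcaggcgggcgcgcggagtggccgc
Spry1: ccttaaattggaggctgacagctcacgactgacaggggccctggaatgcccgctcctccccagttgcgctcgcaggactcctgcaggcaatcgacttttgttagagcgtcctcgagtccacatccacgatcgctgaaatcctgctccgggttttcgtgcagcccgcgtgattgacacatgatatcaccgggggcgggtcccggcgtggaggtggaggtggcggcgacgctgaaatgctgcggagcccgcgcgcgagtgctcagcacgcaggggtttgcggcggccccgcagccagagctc
In these 4 windows only the ETS core of Spry2 is capitalised, which says nothing of motifs in other letters or outside the windows.

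Levels between genes were compared as TPM, which takes transcript length into account. In OSK the highest median level over 5 libraries was that of Etv5 (125 TPM, range 44.5 to 156), followed by Spry2 (93.8 TPM, range 73.1 to 135) and Spred1 (88.9 TPM, range 9.05 to 101). The ranges of these 3 overlap, so their order is not firm. Dusp5 (median 10.6 TPM) and Spry1 (median 4.70 TPM) were the lowest in OSK. In GFP the order was different: Spred1 was highest (median 59.5 TPM, 4 libraries), Etv5 lay at 25.3 TPM, and Spry4 was lowest at 8.88 TPM, next to Dusp5 at 8.93 TPM. In OvSvK the highest medians were those of Etv5 (177 TPM), Etv4 (157 TPM) and Dusp4 (132 TPM).

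**Figure D1:**
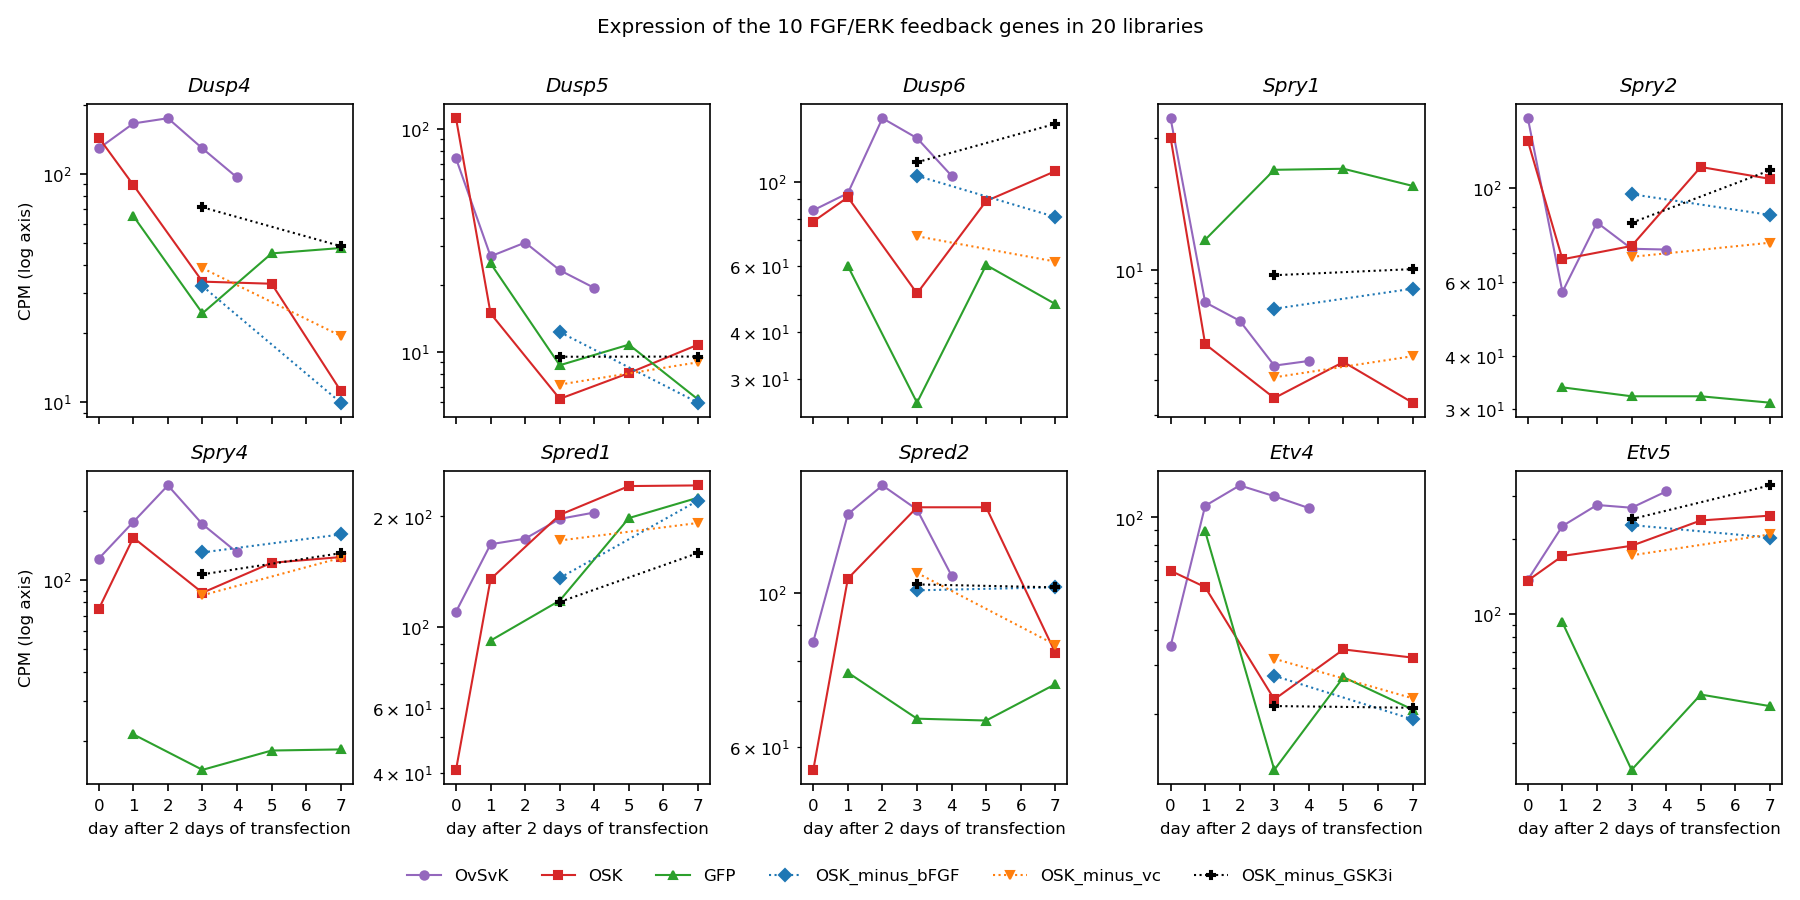
Level of each member (CPM, log axis) against the day, with 1 point per library and 1 line per arm. Spry4 in GFP runs between 15.0 and 21.4 CPM, below all other arms, and Spry1 in GFP runs between 12.9 and 23.1 on days 1 and 3 and above 20 later, above all OSK and OvSvK libraries after day 0.

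To ask how the feedback genes stand in cells that carry the factors, the OSK libraries of days 1, 3, 5 and 7 were set against the GFP libraries of the same days. Per gene, levels are given as CPM, the count in a library scaled to its total after TMM normalization. Spry4, an inhibitor of receptor tyrosine kinase signalling to RAF, was at 153, 88.2, 119 and 126 CPM in OSK on days 1, 3, 5 and 7 and at 21.4, 15.0, 18.2 and 18.4 CPM in GFP. The groups did not overlap, and the lowest OSK library was above the highest GFP library by far more than either group's range on a log scale. The fitted log2 difference was 2.72 (SE 0.14, adjusted p = 0.000692 by edgeR's quasi-likelihood test with Benjamini-Hochberg adjustment over 12680 genes).

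Etv5, an ETS transcription factor, was at 171, 188, 238 and 249 CPM in OSK on the same days and at 92.0, 23.3, 47.0 and 42.2 CPM in GFP. The groups did not overlap, and the day 1 GFP library was the nearest to OSK. Its log2 difference was 2.21 (SE 0.38, adjusted p = 0.012 by edgeR). Spry2, a Sprouty protein of the same kind as Spry4, was at 67.8, 72.9, 112 and 105 CPM in OSK and within 31.1 and 33.8 CPM in GFP, a log2 difference of 1.43 (SE 0.20, adjusted p = 0.00623). The GFP libraries were nearly level for Spry2, and the gap to OSK was wider on days 5 and 7 than on days 1 and 3. Dusp6, the cytoplasmic phosphatase that acts mainly on ERK, was at 91.2, 50.6, 89.1 and 107 CPM in OSK and at 59.8, 25.9, 60.2 and 47.4 CPM in GFP. Both arms had their lowest Dusp6 level on day 3, the OSK value of that day lay inside the GFP range, and OSK was higher on each of the 4 days (log2 difference 0.83, SE 0.17, adjusted p = 0.0195).

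Spry1 went the other way from its relatives. It was at 5.41, 3.45, 4.66 and 3.32 CPM in OSK on days 1, 3, 5 and 7 and at 12.9, 23.1, 23.3 and 20.2 CPM in GFP, with no overlap. Its log2 difference was -2.24 (SE 0.31, adjusted p = 0.00621 by edgeR). Over the 10 members, 4 were called higher against 16.8% of all genes tested, and 1 was called lower against 14%. The median log2 difference of the members was 0.54, and that of all genes was 0.05.

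The other 5 members did not pass the test in OSK against GFP. Spred2, a membrane-bound inhibitor of RAS signalling, had a log2 difference of 0.66 (95% interval 0.15 to 1.16, adjusted p = 0.0578) and was higher in OSK on 4 of 4 days. Spred1, its relative, had a difference of 0.43 (95% interval 0.0037 to 0.85, adjusted p = 0.11). Etv4 had 0.27 (95% interval -0.43 to 0.97) and Dusp5, a nuclear ERK phosphatase, had -0.23 (95% interval -1.02 to 0.57). Intervals this wide leave room for differences in either direction for Etv4 and Dusp5. Dusp4, also a nuclear phosphatase, had a fitted difference of -0.37 (95% interval -1.53 to 0.78) that hides opposite values: it was 0.45 above GFP on log2 scale on day 1 and 0.46 above on day 3, but -0.44 on day 5 and -2.07 on day 7.

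**Figure D2:**
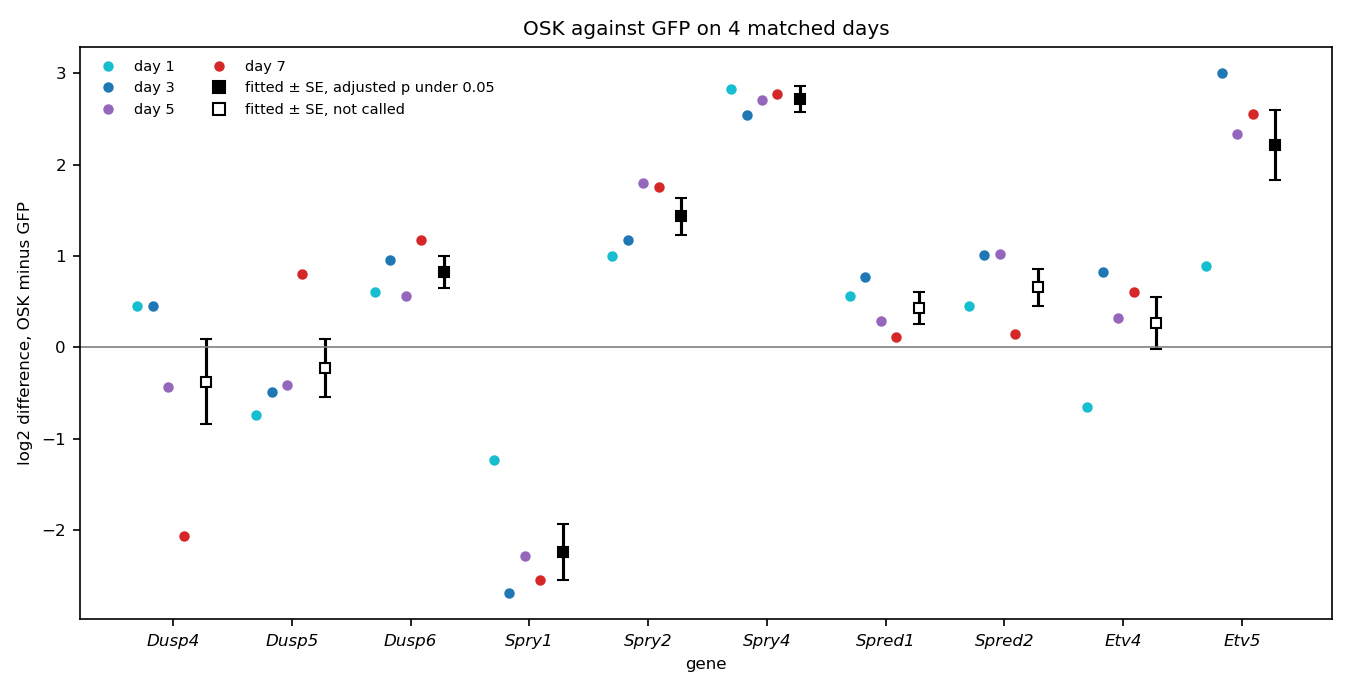
Log2 difference of OSK from GFP for each member, with 1 coloured point for each of 4 days (1 library against 1) and a black square for the fitted difference with its SE. Spry4 is at 2.55 to 2.83 on all 4 days, Spry1 is below -1.2 on all 4, and Dusp4 spreads from 0.46 to -2.07.

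The members called changed when days were left out. Without day 5 the count was 1 higher and 1 lower, since Dusp6 (log2 difference 0.92, adjusted p = 0.0859 by edgeR), Spry2 (1.32, adjusted p = 0.0512) and Etv5 (2.17, adjusted p = 0.0693) did not pass. Without day 3 it was 2 higher and 1 lower, since Dusp6 (0.77, adjusted p = 0.111) and Etv5 (1.93, adjusted p = 0.0576) did not. The calls over all genes fell as well, from 3895 to 933 and 1181. Without day 7 Spred2 was called in addition (0.82, adjusted p = 0.04), among 2911 genes. Markers of cell types moved with the same comparison. Of 12 fibroblast markers 8 were lower and none was higher in OSK, with summed levels of 2480 to 15300 CPM in OSK on days 1 to 7 and 14500 to 26600 CPM in GFP. The 12 pluripotent cell markers summed to 17.3 to 1360 CPM in OSK and to 0.825 to 2.21 CPM in GFP. Only 2 of them passed the filter on low counts. At such GFP levels they could pass only through OSK, so their calls as higher were fixed in advance. Of 3 tested macrophage markers 1 was higher and 1 was lower (38.3 to 92.8 CPM in OSK and 23.0 to 42.2 CPM in GFP, summed over 9). The part of such cell types in the members' differences was not tested.

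Among related genes, the list of 26 other ERK feedback and ERK-responsive genes had 22 tested, of which 6 were higher and 6 lower in OSK than in GFP. Dusp14 was higher (log2 difference 2.40, SE 0.19, adjusted p = 0.00147 by edgeR), and Dusp9, a cytoplasmic ERK phosphatase, was lower (-3.56, SE 0.21, adjusted p = 0.000814). Lif, the cytokine used to maintain mouse stem cells, was lower as well (-1.29, SE 0.18, adjusted p = 0.00634). Of 4 FGF receptors tested, Fgfr1 was lower (-1.44, SE 0.16, adjusted p = 0.00329) and Fgfrl1 was higher (1.69, SE 0.33, adjusted p = 0.0172). Of 6 FGF ligands tested 3 were higher and 1 was lower: Fgf18 (2.26, SE 0.26) and Fgf1 (2.97, SE 0.43) passed the test as higher, while Fgf4, a ligand made by pluripotent cells, was at 0 counts in all 4 GFP libraries and at 2.25, 2.93, 6.5 and 24.7 CPM in OSK. In the RAS/ERK cascade itself 4 of 20 tested genes were higher, among them the adaptor Gab1 (1.02, SE 0.14), and 1, the adaptor Shc1 (-0.81, SE 0.15), was lower.

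Over the days of the OSK course, Dusp4 fell. It was at 144, 89.3, 33.7, 33.0 and 11.2 CPM on days 0, 1, 3, 5 and 7, a change of -0.49 log2 per day (SE 0.08, adjusted p = 0.00125 by edgeR, 14 libraries with a line per arm). In CPM each later day was at or below the one before. From day 0 to day 1, however, Dusp4 rose in TPM (68.7 to 72.8) and in the deposited quantile-normalized values (938 to 1069). Dusp5 fell by 0.45 per day (SE 0.13, adjusted p = 0.0163) and Spry1 fell by 0.40 per day (SE 0.12, adjusted p = 0.0179), while Spred1 rose by 0.28 per day (SE 0.08, adjusted p = 0.016). These 3 called lower and 1 called higher stand beside 24.0% of all genes lower and 21.5% higher in the same test.

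For 3 of these 4 genes the change lay at the start of the course. Dusp5 was at 112 CPM on day 0 and then at 14.9, 6.17, 8.05 and 10.8 CPM. Spry1 was at 30.2 CPM on day 0 and at 3.32 to 5.41 CPM from day 1 on. Spred1 was at 40.8 CPM on day 0 and at 135, 202, 242 and 243 CPM afterwards. For both genes the step after day 0 was smaller in the deposited quantile-normalized values. There Spry1 was at 248 on day 0 and 138 on day 1, and Spred1 at 2081 and then at 3150, 3266, 3610 and 3205. The source of this difference in size was not tested. Without the OSK day 0 library 1 member was lower (Dusp4) and none was higher, and the slopes of Dusp5 (-0.06, adjusted p = 0.651), Spry1 (-0.09, adjusted p = 0.619) and Spred1 (0.13, adjusted p = 0.077) did not pass. Calls over all genes went from 6298 to 2908. That library carries the widest GC deviation given above. OvSvK day 0 had 73.9 CPM of Dusp5 and 35.5 CPM of Spry1, against 19.4 to 31.0 and 4.52 to 7.66 CPM on its later days.

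In OvSvK no member passed the test for a change per day by edgeR, 1 (Spry1) had an unadjusted p under 0.05, and DESeq2 called that 1, against 10.3% of all genes called by edgeR. Spry1 had a slope of -0.70 (SE 0.21, adjusted p = 0.0536). In GFP none passed against 4.8% of all genes, 2 had an unadjusted p under 0.05 and DESeq2 called none. The slope of OSK was set against that of GFP directly, an analysis chosen after seeing the data. Dusp4 was the 1 member with a lower slope in OSK (difference -0.44 log2 per day, SE 0.12, adjusted p = 0.0459), beside 3.38% of all genes lower, and none had a higher slope beside 2.85%. This call was lost in 13 of 19 alternatives. Among the other ERK-responsive genes 15 of 24 tested fell and 1 rose over the days of OSK, beside 24.0% of all genes lower and 21.5% higher. Egr2 (-0.96 per day, SE 0.14) and Fosl1 (-0.86 per day, SE 0.14) were among those that fell. The summed level of this list was 4600 CPM on OSK day 0, 3000 CPM on day 1 and 1490 CPM on day 7. How far its calls rest on the day 0 library was not tested.

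OvSvK was set against OSK on the 3 days both share (0, 1 and 3). No member was called, with log2 differences from -0.02 (Spry2) to 0.90 (Dusp4) and a median of 0.54 beside -0.02 for all genes. None had an unadjusted p under 0.05 and DESeq2 called none of them, and edgeR called 0.0% of all 12910 genes here, while 2991 had an unadjusted p under 0.05 and DESeq2 called 1787. Etv4 was at 34.9, 110 and 119 CPM in OvSvK on days 0, 1 and 3 and at 64.7, 56.6 and 22.6 CPM in OSK. OvSvK was the lower arm on day 0 and the higher one on both later days. Dusp4 was at 129, 166 and 129 CPM in OvSvK and at 144, 89.3 and 33.7 CPM in OSK, a like order, and it stayed at 96.3 CPM or more through OvSvK day 4. Without day 0 both passed the edgeR test as higher in OvSvK: Etv4 by 1.67 (adjusted p = 0.0406) and Dusp4 by 1.42 (adjusted p = 0.042). In that setting 1263 genes were called, 820 of them higher. The day 0 libraries of both arms lie in the same library set. On days 1 and 3 the arms lie in different sets, so set and arm cannot be told apart there. The GC group of Etv4 and Dusp4 had a median log2 deviation of 1.2 in OSK day 0 and 0.1 in OvSvK day 0.

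The libraries without bFGF were compared with OSK on days 3 and 7 to ask whether the transcripts of the pathway's feedback genes follow the omission of an FGF from the medium. None of the 10 members passed the test as lower, beside 7.77% of 14191 genes, and 1, Spry1, passed as higher, beside 4.71%. The median log2 difference of the members was 0.02 and that of all genes was 0.01. Spry1 was at 7.26 and 8.58 CPM without bFGF on days 3 and 7 and at 3.45 and 3.32 CPM in OSK, so that both libraries without bFGF were above both OSK libraries, and all 4 were below GFP. Its log2 difference was 1.21 (SE 0.31, adjusted p = 0.0324 by edgeR). It did not pass with limma on log2(TPM + 1) (0.97, adjusted p = 0.0614) or in 1 model of all 20 libraries (1.00, adjusted p = 0.279). The comparison crosses the 2 library sets. Genes of the GC group of Spry1 had median deviations of 0.29 and 0.005 without bFGF on days 3 and 7. In OSK these were -0.26 and -0.17. The part of GC content in the Spry1 call was not tested.

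The other 9 had fitted differences from -0.37 (Spred1) to 0.44 (Spry4). In the deposited quantile-normalized values Spred1 was instead above OSK on days 3 and 7 (3449 and 4423 against 3266 and 3205). Spry4 was at 132 and 158 CPM without bFGF and at 88.2 and 126 CPM in OSK on days 3 and 7, higher on both days (log2 difference 0.44, SE 0.20, adjusted p = 0.163 by edgeR). Etv5 was at 228 and 203 CPM without bFGF and at 188 and 249 CPM in OSK. It was the higher of the pair on day 3 and the lower on day 7, and its fitted difference was -0.01 (95% interval -0.51 to 0.50). Etv4 was at 27.4 and 19.2 CPM against 22.6 and 31.8 CPM (fitted -0.26, 95% interval -0.86 to 0.33). Dusp4 was at 32.2 and 9.95 CPM against 33.7 and 11.2 CPM, and it fell from day 3 to day 7 to a like extent in both arms (fitted -0.12, 95% interval -0.77 to 0.54). A difference that did not pass the test is not shown to be absent, and the intervals give the sizes these libraries leave room for.

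Dusp5 and Dusp6 had the widest contrasts between days. Dusp6 was at 104 CPM without bFGF on day 3 and at 50.6 CPM in OSK, and at 80.8 CPM against 107 CPM on day 7. The arm without bFGF was thus above OSK on day 3 and below it on day 7, and the fitted difference was 0.27 (95% interval -0.45 to 0.98). Dusp5 had the same order (12.3 against 6.17 CPM, then 5.93 against 10.8 CPM). On single days, a member counted as different when its levels were 2-fold apart and 1 of both libraries reached 5 CPM. By that measure 2 members (Dusp6 and Spry1) were higher on day 3 beside 7.15% of all genes, and none was lower beside 7.78%. Both lay just past 2-fold (log2 ratio 1.04 each), and neither did without TMM scaling or as log2(TPM + 1). On day 7 only Spry1 among the 10 members was higher beside 9.3%, and none was lower beside 8.76%. The OSK library of day 3 had the lowest Dusp6 level of the OSK course, and it enters all 3 omission comparisons of that day.

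**Figure D3:**
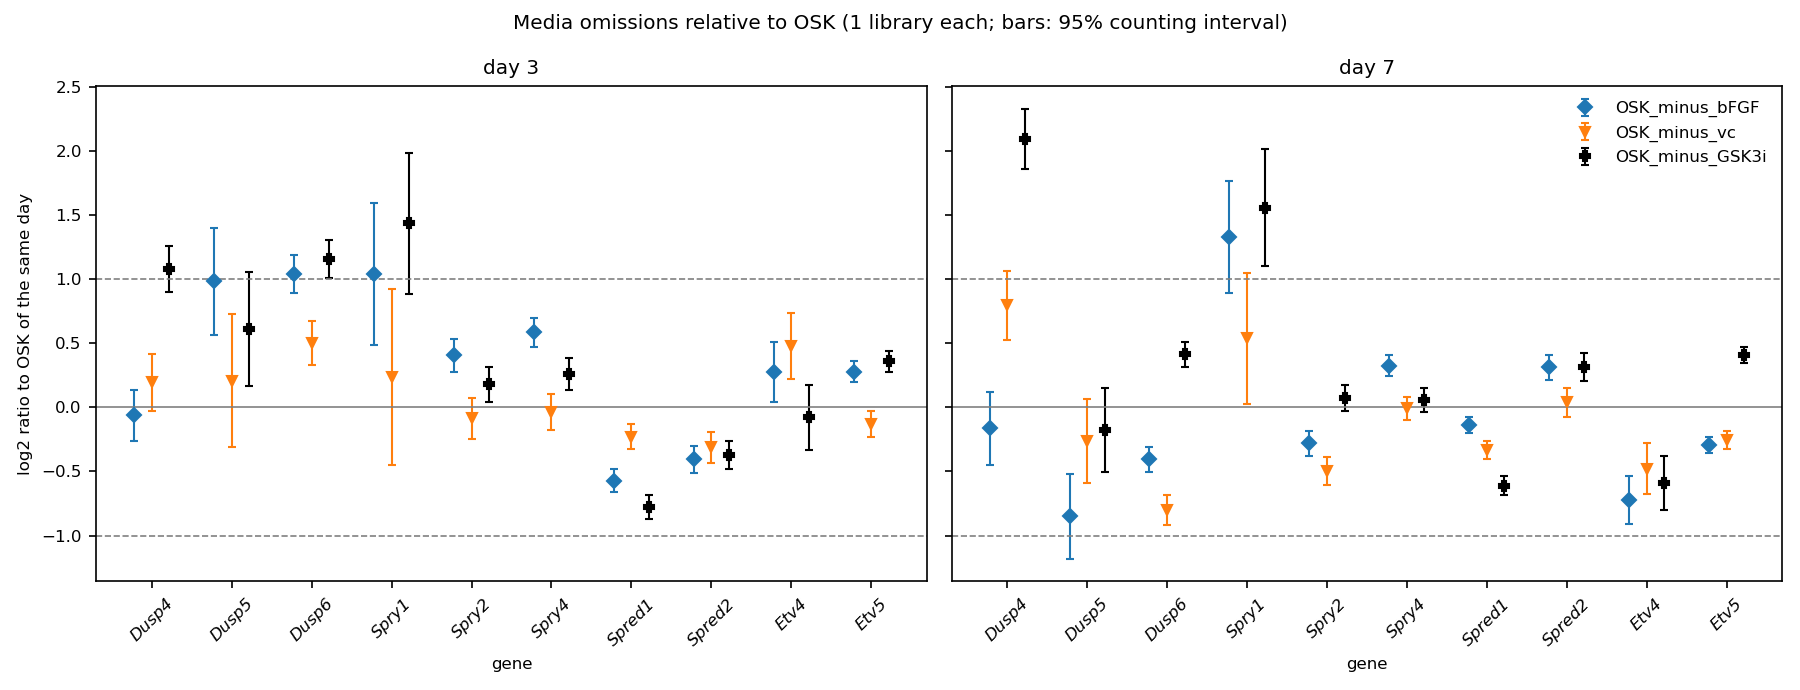
Log2 ratio of each medium omission to OSK on day 3 (left) and day 7 (right), 1 library each, with 95% counting intervals and dashed lines at 2-fold. Without bFGF, Dusp6 lies at 1.04 on day 3 and -0.41 on day 7, and Spry1 lies above 1 on both days.

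The library without bFGF can also be set against the other omissions, which lie in the same library set. No member was called by edgeR, beside 2.18% of all genes, and 1 had an unadjusted p under 0.05. That member was Dusp4, with a log2 difference of -1.17 (SE 0.27, adjusted p = 0.0546): it was at 32.2 and 9.95 CPM without bFGF, at 38.6 and 19.5 CPM without vitamin C, and at 71.3 and 48.2 CPM without GSK3 inhibitors. Dusp4 was lower without bFGF than in either of the others on both days, and DESeq2 called it (adjusted p = 0.00508). Spry1, by contrast, had a difference of 0.23 (SE 0.26, adjusted p = 0.73) from the other omissions. It was at 4.10 and 4.89 CPM without vitamin C and at 9.60 and 10.1 CPM without GSK3 inhibitors, on either side of its values without bFGF.

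Without GSK3 inhibitors, compounds that raise beta-catenin activity, 2 members were higher than in OSK beside 9.97% of all genes, and 1 was lower beside 13.3%. Dusp4, at the CPM given above, was higher by 1.62 (SE 0.30, adjusted p = 0.00603 by edgeR), with a ratio to OSK of 2.11 on day 3 and 4.27 on day 7. Spry1 was higher by 1.55 (SE 0.31, adjusted p = 0.00815 by edgeR). Genes of the GC group of Dusp4 and Spry1 had median deviations of 0.21 and 0.19 without GSK3 inhibitors on days 3 and 7. In OSK these were -0.26 and -0.17. Spred1, at 117 and 159 CPM against 202 and 243 CPM, was lower (fitted -0.69, SE 0.21, adjusted p = 0.0401), and it did not pass with limma on log2(TPM + 1) (adjusted p = 0.0751). Genes of its GC group had median deviations of -0.45 and -0.34 in these libraries on days 3 and 7, against 0.03 and 0.45 in OSK. In the deposited quantile-normalized values the order was reversed: Spred1 was at 3476 and 3999 without GSK3 inhibitors and at 3266 and 3205 in OSK. The source of this conflict was not tested. Dusp6 was at 113 and 143 CPM, above OSK on both days, and did not pass (0.73, SE 0.32, adjusted p = 0.121), and the other 6 ran from -0.36 (Etv4) to 0.40 (Etv5). None of these 3 calls was made in 1 model of all 20 libraries. Without vitamin C, an added cofactor of iron-dependent dioxygenases, no member was called, beside 0.296% of all genes: none had an unadjusted p under 0.05, DESeq2 called none, and the fitted differences ran from -0.30 (Spry2) to 0.48 (Dusp4). The 3 omission comparisons share the same OSK libraries.

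Other genes of the pathway differed between the libraries without bFGF and OSK, a comparison that crosses the 2 library sets. Of 23 tested genes among the other ERK feedback and ERK-responsive genes 6 were higher than in OSK and 1 was lower, beside 4.71% and 7.77% of all genes. Those with the smallest p-values were immediate early genes: Junb was at 62.6 and 43.9 CPM on days 3 and 7 against 15.4 and 17.6 CPM in OSK (log2 difference 1.67, SE 0.24, adjusted p = 0.00552 by edgeR). Fos, its partner in AP-1, was at 54.8 and 35.6 CPM against 21.9 and 14 CPM (1.32, SE 0.28, adjusted p = 0.0157). Egr2 was at 10.3 and 3.28 CPM against 0.523 and 0.363 CPM (3.75, SE 0.65, adjusted p = 0.0094), and Ier3 at 40.2 and 35.2 CPM against 16.7 and 21.5 CPM (0.97, SE 0.23, adjusted p = 0.0229). Without vitamin C none of the list was called. Junb (35.7 and 33.0 CPM), Ier3 (21.6 and 27.2 CPM) and Egr2 (2.23 and 0.709 CPM) were above OSK there on both days, and Fos (27.4 and 12.8 CPM) on day 3 only. Junb, Ier3 and Fos were higher without GSK3 inhibitors too (1.71, 1.01 and 1.05). In that comparison 3 of 23 tested genes of the list were called higher and 2 lower, beside 9.97% and 13.3% of all genes. Within the omissions only Egr2 of this list passed as higher without bFGF (2.06, SE 0.46, adjusted p = 0.0468 by edgeR).

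Upstream of ERK, 1 of 5 FGF receptors was called in the same comparison. Fgfr4 was at 2.18 and 10.9 CPM without bFGF and at 0.523 and 2.54 CPM in OSK (log2 difference 2.11, SE 0.44, adjusted p = 0.0154 by edgeR), and it was also higher than in the other omissions (1.96, SE 0.34, adjusted p = 0.0187). Among 7 ligands tested Fgf18 was higher than in OSK, at 39.4 and 21 CPM against 5.96 and 7.37 CPM (2.16, SE 0.36, adjusted p = 0.00924). Of 20 genes of the RAS/ERK cascade none was higher and 2 were lower: Nras (-0.92, SE 0.20, adjusted p = 0.0173) and Rasa1, a RAS GTPase-activating protein (-0.90, SE 0.23, adjusted p = 0.0324). In the omission model a median of 0.29 was found for the other ERK-responsive genes and of 0.01 for the cascade.

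Cell type markers also moved without bFGF. Of 12 fibroblast markers 8 were higher than in OSK and none was lower, with summed levels of 15500 and 7880 CPM on days 3 and 7 against 7870 and 2480 CPM in OSK. Of 10 tested pluripotent cell markers 6 were lower, with sums of 121 and 358 CPM against 160 and 1360 CPM, and 4 of the 12 were at 0 on day 3 and none on day 7 (2 and none in OSK). No macrophage marker of 4 tested was called (66.0 and 33.0 CPM against 66.9 and 47.2 CPM). Without GSK3 inhibitors 7 fibroblast markers were higher and 7 pluripotent cell markers were lower. Spry1, which is high in GFP and higher without bFGF or GSK3 inhibitors than in OSK, moved in the same direction as the fibroblast markers in those 3 comparisons, and the part of fibroblasts in its level was not tested.

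The end points of the series were available only as whole-number, quantile-normalized values in 1 table, in which mESC and MEF had been estimated on another genome build and with another RSEM version than the rest, so their processing and their cell type cannot be told apart. Of the 10 members, 9 were lower there in mESC than in MEF, and 48.0% of all 12897 genes were lower. Etv5 was the exception, with 4372 in mESC and 816 in MEF, and its values of 2980 on OSK day 7 and 4152 on OvSvK day 4 lay toward mESC. Etv5 was also at 4152 without GSK3 inhibitors on day 7. The pluripotent cell markers summed to 244 CPM in that library, against 1360 CPM in OSK day 7. Spry1 had 1170 in MEF, 211 in mESC, 64 on OSK day 7 and 85 on OvSvK day 4, below both end points. Dusp4 had 715 in MEF and 36 in mESC, and OSK day 7 (156) lay between them while OvSvK day 4 (1487) lay above both. Spry4 had 648 in MEF and was listed at 2 in mESC, with 1852 on OSK day 7 and 2080 on OvSvK day 4. Dusp6 also had higher values at the end of both courses (1396 and 1452) than in MEF (794) or mESC (192).

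**Figure D4:**
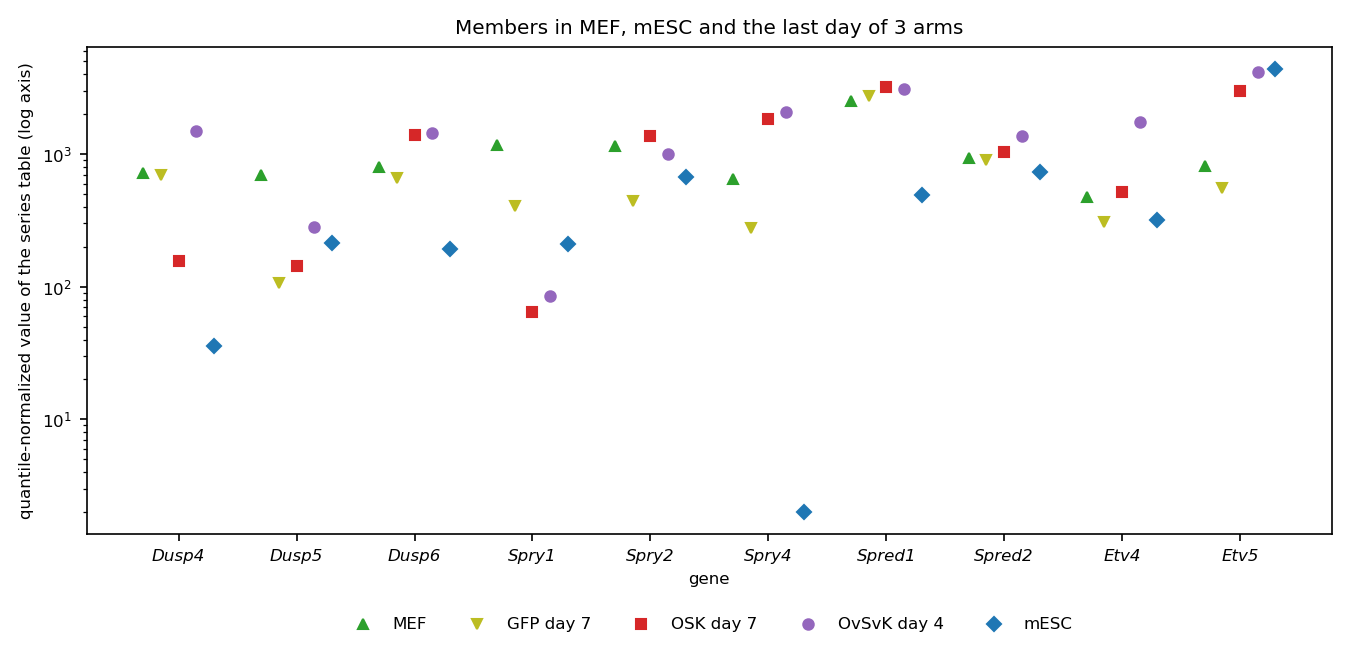
Quantile-normalized value (log axis) of each member in MEF, mESC and the last library of GFP, OSK and OvSvK, 1 library per point. Etv5 is the member with mESC above MEF, and Spry4 and Dusp6 are highest in OSK day 7 and OvSvK day 4.

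The 10 members did not vary as 1 group. Over the 20 libraries the Pearson correlation of log2(CPM + 1) had a median of 0.25 over the 45 pairs, with 14 pairs above 0.5 and 5 below -0.5. These are descriptions, since the libraries share arms, days and library sets. Spry4 and Etv5 were the closest pair (r = 0.916), and Dusp6 went with Etv5 (0.850) and Spry4 (0.798). This order depends on the measure. By Spearman's rank correlation Dusp6 and Etv5 were the closest pair (0.875), and Spry4 and Etv5 were at 0.716. Spry2 had a Pearson correlation of 0.770 with Spry4 and 0.737 with Etv5, but Spearman values of 0.313 and 0.463. Dusp4 went with Dusp5 (0.738) and Etv4 (0.737). Spry1 ran against Spred2 (-0.721) and Etv5 (-0.670). Among 11235 other genes, the one most like Etv5 was Sox13 (r = 0.962), for Spry4 it was Dab1 (0.957), for Spry1 Pmepa1 (0.936), for Dusp4 Endod1 (0.914) and for Dusp6, the least matched of the 10, 5730559C18Rik (0.840).

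**Figure D5:**
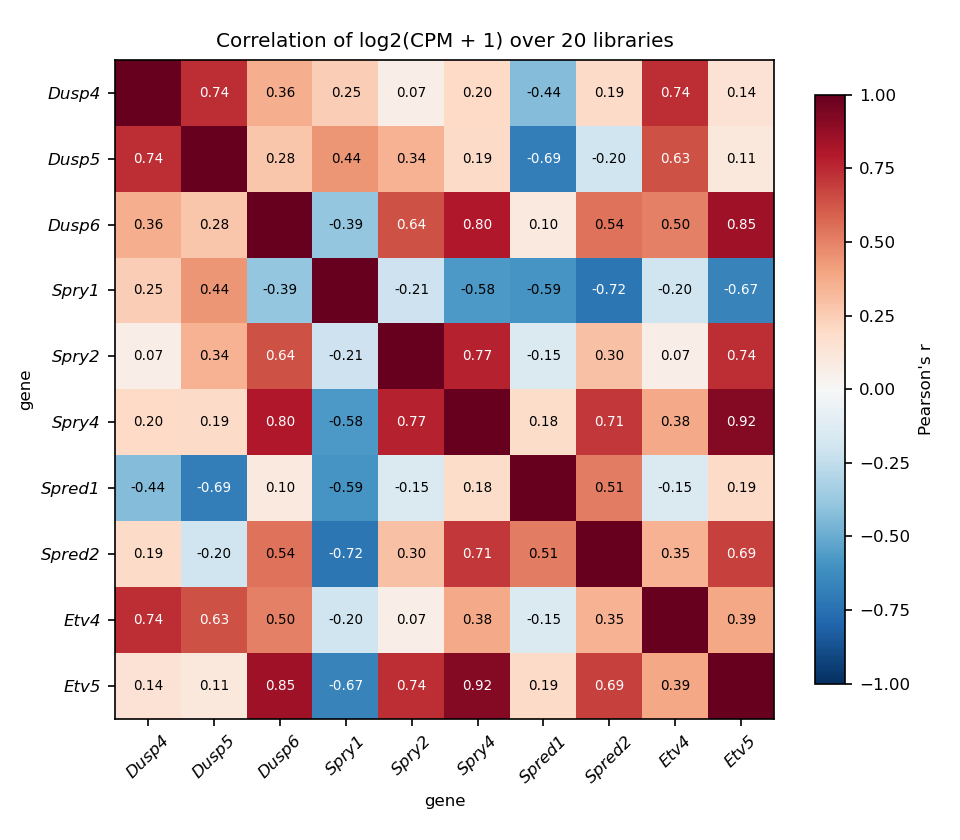
Pearson correlation of log2(CPM + 1) for each pair of members over 20 libraries, from -1 (blue) to 1 (red). Spry4, Etv5, Dusp6 and Spry2 form 1 block of positive values, Dusp4, Dusp5 and Etv4 a second, and Spry1 is negative against Etv5 and Spred2.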

How the data were processed

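RNA was measured in 22 samples, 1 library per arm and day, per the labels from Trizol total RNA with TruSeq libraries. Per the submitters' processing notes, 20 libraries were quantified by RSEM 1.2.4 (mm10), and mESC and MEF by RSEM 1.1.21 (mm9). The authors deposited expected counts, RSEM's estimates after sharing ambiguous reads among genes, and TPM, per the file headers, for 24130 genes. The deposited series table holds a score, read here as quantile-normalized because all 22 columns share a median of 374 and a maximum of 58542. It was used for end points, for Spred1 without bFGF or GSK3 inhibitors, and for Etv5 without GSK3 inhibitors. It was also used for Dusp4, Spry1 and Spred1 in the OSK course. The aligner and strandedness were not given in the sources used here, so ambiguous reads of related genes may be split. Symbols came from the series table (12897) and gencode M21 (10788), and 445 identifiers had none.

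Counts were rounded and fitted with edgeR 4.0.16 (R 4.3.3): TMM scaling, filterByExpr by arm, robust quasi-likelihood models and Benjamini-Hochberg adjustment over all genes, threshold 0.05. OSK against GFP used 8 libraries (12680 genes) and OvSvK against OSK used 6 (12910), with day as a factor. The omissions and OSK shared 1 model of 8 libraries (14191 genes), and lines over days used 14 (13848 genes). Single-day ratios used a prior count of 2 and have no test. Intervals of levels cover counting error only. Alternatives were DESeq2 1.42.0, median-of-ratios scaling, no filter, limma 3.58.1 on log2(TPM + 1), 1 model of 20 libraries and leaving out days or libraries. Scripts were tested on simulated data. Tables used pandas 2.3.3, numpy 2.4.6 and scipy 1.17.1 under python 3.11.15, with plots by matplotlib 3.10.9. Members, lists and tests were chosen with earlier results of these data known. All 10 members were tested in every comparison and could be named there, with the rest given by counts or range, and other listed genes were named by smallest p, at most 4 per list and comparison.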

Additional observations from a re-analysis of the deposited data

Results flagged for a closer look

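The slope of Dusp4 over days was lower in OSK than in GFP by 0.44 log2 per day (difference -0.44, tested in the model of lines over days, adjusted p = 0.0459 by edgeR). This contrast was chosen after seeing the data, and the call was lost in 13 of 19 alternatives.

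Some single-day log2 ratios to OSK had opposite signs on day 3 and day 7. These differences between days were not tested, since each rests on 1 library per arm and day, and all of them use the same pair of OSK libraries. Without bFGF, the day 3 ratio minus the day 7 ratio was 1.83 for Dusp5, 1.45 for Dusp6, 1.00 for Etv4, 0.69 for Spry2, 0.57 for Etv5 and -0.72 for Spred2. Without vitamin C it was 1.30 for Dusp6 and 0.96 for Etv4. Without GSK3 inhibitors it was -0.69 for Spred2.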

How the results depend on the processing

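No member's called difference changed sign under any alternative run. The deposited quantile-normalized values, in which Spred1 was higher without GSK3 inhibitors than in OSK, were not among these alternatives. Counts of called members in OSK against GFP were 2 to 6 when 1 day was left out, and 5 to 7 under the other settings. Without bFGF against OSK the count was 0 with limma on log2(TPM + 1) and 0 in 1 model of 20 libraries, against 1. Against the other omissions it was 1 (Dusp4) with DESeq2, without a filter and with the 6 omission libraries alone, against 0. Without GSK3 inhibitors it was 0 in the model of 20 libraries, against 3. OvSvK against OSK gave 0 to 2 with 1 day left out and 1 in the model of 20 libraries, against 0. The slope in OSK gave 2 with limma, 1 without OSK day 0 and GFP day 1 together, and 1 to 5 with 1 library left out, against 4. The slope in OvSvK gave 1 with DESeq2, 1 without a filter, 4 without OSK day 0 and GFP day 1, and 0 to 2 with 1 library left out, against 0, and that in GFP gave 0 to 1. The OSK minus GFP slope gave 0 without a filter, with limma and without OSK day 0 and GFP day 1, and 0 to 2 with 1 library left out, against 1. The 2-fold count of day 3 without bFGF was 0 without TMM scaling and 0 as log2(TPM + 1), against 2. The cause of these changes in count was not tested.

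Over all genes, calls in OSK against GFP ran from 933 without day 5 to 6012 without day 1, against 3895. DESeq2 called 1787 in OvSvK against OSK (edgeR 0), 316 without vitamin C (edgeR 42) and 609 without bFGF against the other omissions (edgeR 310). The model of 20 libraries called 38 without bFGF (main 1771) and 204 without GSK3 inhibitors (main 3309). Spry1, at 33 to 422 counts per library, is the member whose levels depth limits most.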
